A study of Mus musculus with 10 samples.

Results

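The long RNA of the adult mouse heart was set against that of the newborn heart, locus by locus. The members were all loci of the long RNA table with at least 1 FPKM (fragments per kilobase of transcript, scaled to the sequencing depth) in the adult or the newborn library, 14081 of 35299 loci. The adult library came from heart tissue of adult C57BL/6 mice and the newborn library from heart tissue of C57BL/6 mice labelled neonatal. Neither group carried a treatment or an altered allele, per the labels. The labels also name cardiomyocytes as the cell type, while the source is given as heart tissue, so the values are described as those of heart tissue. The number and sex of the animals behind each library, and the exact ages, are not stated in the labels. The same table holds libraries of embryonic days 10.5, 14.5 and 17.5 (E10.5, E14.5 and E17.5). Each of the 5 stages had 1 long RNA library, so there was no spread between animals, no difference was tested, and "higher" and "lower" describe these libraries.

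After birth the heart of the mouse leaves the low-oxygen, growing state of the fetus. As is known from earlier work, its muscle cells stop dividing, change from fetal to adult forms of contractile proteins and enlarge their mitochondria, which take over energy supply by burning fatty acids. Fibroblasts, vessels and resident immune cells expand in the same weeks. In whole tissue, fewer cells of a type and less RNA per cell cannot be told apart.

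Loci carry assembly numbers, UCSC transcript identifiers and mm9 positions in the deposited table, and 0 of 35299 were paired with a gene symbol by the name tables used here. Nuclear loci are therefore described by position, level and neighbourhood, and no nuclear gene is named. For the same reason the labelled tissue could not be checked against heart markers. Positions are written as deposited.

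A locus was called at a difference of at least 1 in log2(FPKM + 1), adult minus newborn, which is 2-fold at high levels and more at low levels. By this rule of size 1656 loci were higher in the adult (11.8% of the 14081) and 1387 were lower (9.85%), while 11038 were in neither class. The median difference was 0.04, with quartiles at -0.42 and 0.52, so the distributions of the libraries were centred close to each other. A difference of at least 2 (4-fold) was reached by 370 higher loci (2.63%) and 342 lower loci (2.43%), and one of at least 4 by 20 higher and 31 lower loci. Many called loci lay on the other side of 1 FPKM in the opposite library. Of the 1656 loci higher in the adult, 565 (34.1%) were under 1 FPKM in the newborn, and of the 1387 lower loci 656 (47.3%) were under 1 FPKM in the adult. The 290 members at 1 to 1.1 FPKM in their higher library had a median difference of 0.03, and the 343 loci just outside, at 0.9 to 1 FPKM, had one of -0.03.

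**Figure D1:**
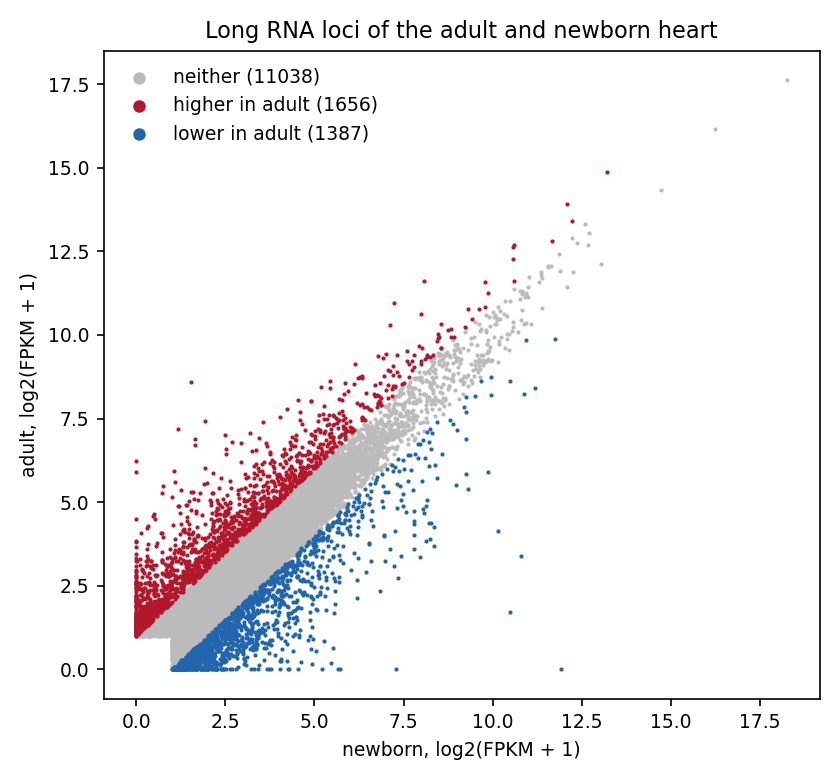
Each point is 1 of 14081 long RNA loci, with the adult level on the y axis and the newborn level on the x axis, both as log2(FPKM + 1), 1 library each. Red points (1656) are at least 1 unit higher in the adult, blue points (1387) at least 1 unit lower and grey points (11038) in neither class.

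The balance of calls differed with the level of the locus. Among 2692 loci with 2 to 5 FPKM in their higher library, 11.1% were adult-higher and 14.6% adult-lower, and the median was -0.09. Among 849 loci with 100 to 1000 FPKM, 22.5% were adult-higher and 10.2% adult-lower, and the median was 0.30. Among the 109 loci that reached 1000 FPKM, 23 were adult-higher and 9 adult-lower, and the median was 0.35. Abundant loci thus lay above the newborn more often than below it, and loci of 2 to 5 FPKM the reverse.

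The loci of this paragraph are among the most abundant. They were chosen after the values were seen, the 2 short ones for their level and the wide ones for their level and their difference. The highest, chr9:78023097-78023440, spans 343 bases and had 201193 FPKM in the adult, against 314714 FPKM in the newborn. The next, chr4:43505656-43505931, spans 275 bases and had 72558 FPKM in the adult and 76837 FPKM in the newborn. These 2 short loci made up 28.2% of summed FPKM in the adult and 40.2% in the newborn, which is a share of FPKM and not of reads. Loci with a wider span that were called higher included chr15:76827795-76887537, at 15606 FPKM in the adult and 4343 FPKM in the newborn, 3.59-fold. That locus had 95.0, 552 and 1407 FPKM at E10.5, E14.5 and E17.5. The locus chr5:122872489-122957161 had 6545 FPKM in the adult and 1548 FPKM in the newborn (4.23-fold), and chr7:30954940-30983888 had 6334 and 1507 FPKM in the same order (4.20-fold). Both had also been lower still at E10.5, at 383 and 324 FPKM. By contrast chr4:129957728-130037190 was level between the stages, at 6561 FPKM in the adult and 6562 FPKM in the newborn, after 255 FPKM at E10.5. These 4 wide loci share their intervals with less abundant ones. Some wide loci not chosen were more abundant and were not called, such as chr5:122543065-122588071, at 20705 FPKM in the adult and 26861 FPKM in the newborn.

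The 4 loci named by identifier were those with the largest differences in each direction among 3953 loci with a transcript identifier, an interval of their own of at least 300 bases and at least 10 FPKM in either library. The largest higher value was that of the locus with uc009rqz.1 and uc009rra.1 (chr9:108710710-108721708), at 382 FPKM in the adult and 1.89 FPKM in the newborn, a difference of 7.05 in log2(FPKM + 1). Its level was not low throughout development: it had 171, 1.88 and 1.95 FPKM at E10.5, E14.5 and E17.5. The first and the last stage of the series were thus both far above the 3 stages between them. The locus of uc009mun.1 (chr8:95689970-95721703) had 146 FPKM in the adult and 1.25 FPKM in the newborn, a difference of 6.03, and was between 0.914 and 4.04 FPKM in the embryonic libraries.

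The largest lower value was that of uc007cts.1 (chr1:137696032-137707542), at 2.26 FPKM in the adult and 1439 FPKM in the newborn, a difference of -8.79. This locus was abundant in every earlier library, with 1033, 1444 and 1795 FPKM at E10.5, E14.5 and E17.5, so its low value was seen in the adult alone. The locus of uc009kob.1 (chr7:149761435-149764019) had 16.6 FPKM in the adult and 1126 FPKM in the newborn, a difference of -6.00. Its newborn value was the lowest before the adult, after 3956, 3835 and 2870 FPKM at E10.5, E14.5 and E17.5. Of the 10 loci that followed these 2 in the lower direction, 5 lay in the stretches of chromosomes 13 and X described below. Those stretches were bounded by runs called lower from the same 2 libraries, so this count is a description and no separate support for them.

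The embryonic libraries gave a view of the called loci that shares no library with the adult and the newborn. Between E10.5 and E17.5, 965 of the 14081 members were at least 1 unit higher at E17.5 (6.85%) and 416 lower (2.95%). Among the 1656 adult-higher loci, 323 were higher at E17.5 than at E10.5 (19.5%) and 26 lower (1.57%), with a median E17.5 minus E10.5 of 0.34. Among the 1387 adult-lower loci, 123 were higher at E17.5 (8.87%) and 198 lower (14.3%), with a median of -0.34. The 11038 loci in neither class had 4.70% higher and 1.74% lower, with a median of -0.02. With FPKM as deposited the direction before birth thus ran with the direction of the adult call more often than against it in both classes, and most called loci were in neither class before birth. At the 4-fold limit the counts were few. There, 28 of 370 adult-higher loci were also higher at E17.5, as were 1.46% of all members. Of 342 adult-lower loci, 8 were also lower at E17.5, as were 0.284% of all members. These counts depend on the E10.5 library, in which 1 locus (chr17:81772444-82138966) made up 84.8% of summed FPKM. When libraries were scaled to the same FPKM total, 998 adult-higher loci were higher at E17.5 and 3 adult-lower loci were lower. Summed FPKM was 6.73e+06 at E10.5 and 1.01e+06 at E17.5, so this scaling lowers E10.5 values against E17.5 in all classes of loci. The share of all members under it was not counted, so 998 and 3 are not read as results about the 2 classes. With FPKM as deposited, 798 of the adult-higher loci (48.2%) were higher at both prenatal steps, E14.5 over E10.5 and E17.5 over E14.5, against 29.5% of all members. Of the adult-lower loci, 696 (50.2%) were lower at both steps, against 29.5% of all members.

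The median level of the adult-higher loci ran over the 5 stages, from E10.5 through birth to adulthood, as 1.31, 2.34, 2.93, 2.99 and 12.6 FPKM. That of the adult-lower loci was 10.4, 8.71, 7.60, 6.70 and 1.15 FPKM in the same order. Loci in neither class stayed between 8.65 and 9.14 FPKM. The last 2 values of each class were used to define it and are given as a description.

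**Figure D2:**
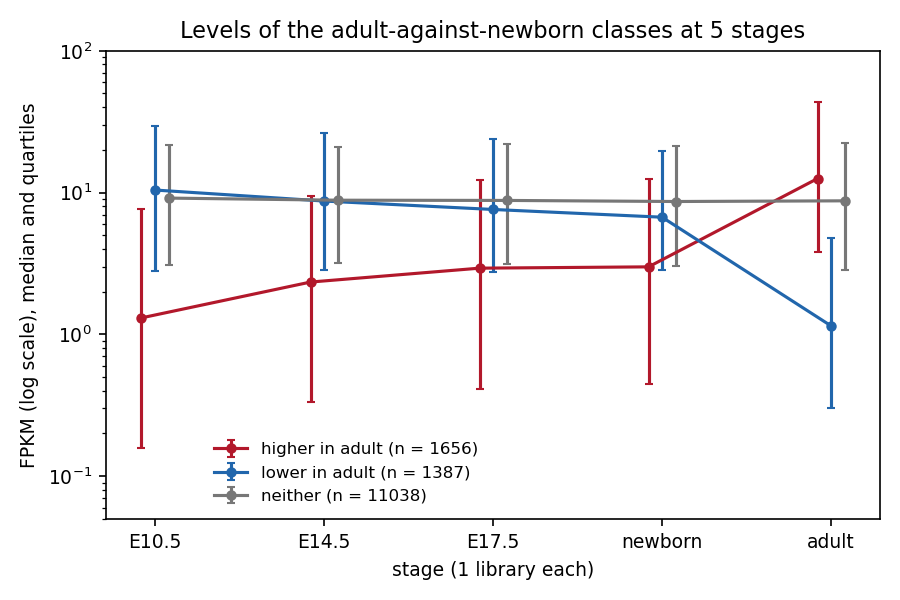
The y axis is FPKM on a log scale and the x axis the 5 stages, 1 library each; points are medians over loci and bars reach from the lower to the upper quartile. The adult-higher class (red, 1656 loci) had medians from 1.31 FPKM at E10.5 to 12.6 in the adult, the adult-lower class (blue, 1387 loci) from 10.4 to 1.15, and the class in neither (grey) stayed near 9 FPKM.

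The mitochondrial chromosome was the one place where loci could be given gene names, because its sequence record is shared by mm9 and GRCm38 and 5 of the 16 ends of the deposited intervals coincide to the base with RefSeq mitochondrial genes. The mitochondrial genome is transcribed in long units and codes for ribosomal RNAs, transfer RNAs and core subunits of the respiratory chain and of ATP synthase. All 8 mitochondrial loci were adult-higher, against 11.8% of all members. Their differences ranged from 1.18 to 2.50 with a median of 1.62, and their ratios of FPKM from 2.30 to 5.71.

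The locus over COX1, which codes for the catalytic subunit of cytochrome c oxidase, was by far the most abundant of them, with 30097 FPKM in the adult and 9436 FPKM in the newborn (3.19-fold). The interval that holds ND5, ND6 and CYTB, subunits of complex I and complex III, had 1037 FPKM in the adult and 351 FPKM in the newborn. The interval over ND4L and ND4 of complex I had 541 FPKM in the adult and 146 FPKM in the newborn. In all 8 mitochondrial loci the adult value was the highest of the 5 stages.

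The interval over ND2, another subunit of complex I, had 497 FPKM in the adult and 132 FPKM in the newborn. The interval that spans most of mt-Rnr2, the large ribosomal RNA, together with ND1 had 975 and 357 FPKM in the same order. The interval within mt-Rnr1, the small ribosomal RNA, had 421 FPKM in the adult and 73.7 FPKM in the newborn, the largest ratio of the 8 at 5.71-fold. The lowest ratio was at the locus over COX2, an oxidase subunit, with 78.9 FPKM in the adult and 34.3 FPKM in the newborn (2.30-fold). The locus over ATP8 and ATP6 of ATP synthase was the least abundant, at 17.2 and 6.80 FPKM in the same order. Its difference of 1.22 was under the limit, at 0.91, when 5 was added to the values in place of 1.

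Summed over the 8 loci, the mitochondrial chromosome had 33663 FPKM in the adult and 10538 FPKM in the newborn, 3.19-fold, and 3.24-fold without the COX1 locus. This was 3.47% of summed FPKM in the adult and 1.08% in the newborn. The sums before birth were 3215, 3214 and 4938 FPKM at E10.5, E14.5 and E17.5. All 8 loci had a positive difference of E17.5 from E10.5, as did 49.6% of all members. Only the COX2 locus reached a difference of 1 (1.26), which 6.85% of all members did. The adult level of the COX1 locus was 1748-fold that of the ATP8 and ATP6 locus, so the deposited per-length values differed widely between loci of this chromosome within a library. Whether reads of this chromosome were also assigned to nuclear loci was not tested, so these gaps need not be gaps between the genes.

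**Figure D3:**
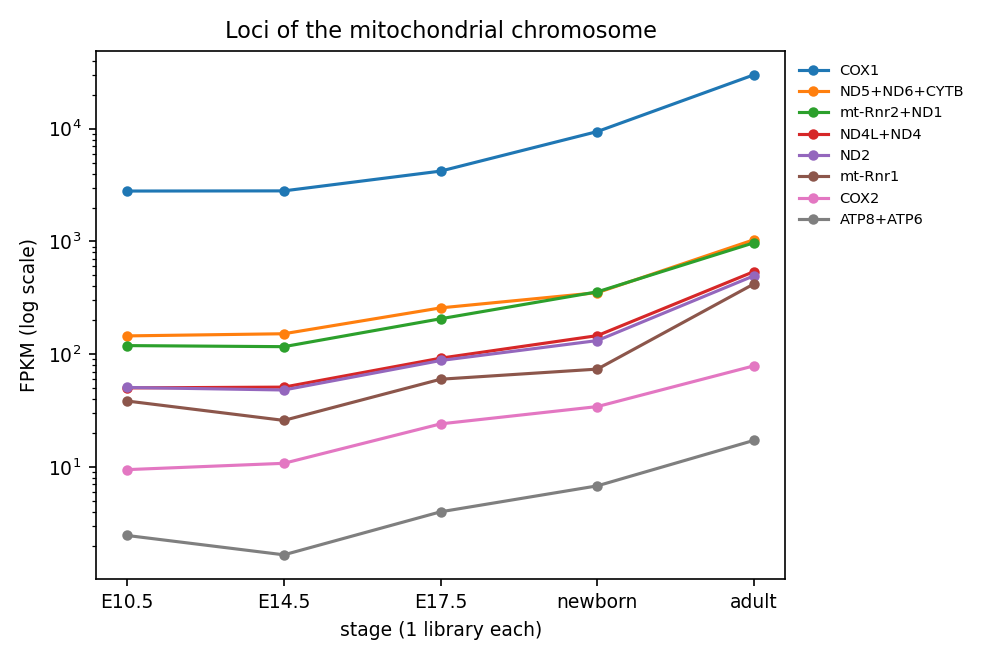
FPKM on a log scale (y axis) for the 8 loci of the mitochondrial chromosome at the 5 stages (x axis), 1 library each, labelled by the genes of which at least 50% lies inside the interval. Every line is higher in the adult than in the newborn, and the COX1 locus, from 2799 FPKM at E10.5 to 30097 FPKM in the adult, lies above the others.

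Called loci also followed each other in the order of members along the chromosomes, at any distance. Runs of at least 4 neighbouring members that were all called in 1 direction numbered 33 for higher and 16 for lower loci, with 196 and 105 loci in them, and the 8 mitochondrial loci are 1 of the 33 higher runs. Intervals that several loci share shape this count, since 10 of the 33 and 3 of the 16 runs lay within a single interval. With such loci left out, 10 higher runs, the mitochondrial one included, and 7 lower runs were found. The 3 longest runs in each direction are described, each one by its loci's values.

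The longest run of the whole comparison was of lower loci, 22 in 13 intervals on chromosome 13 (chr13:21807631-22139792, 332 kb). Its loci had a median of 3.80 FPKM in the adult, with a range from 0 to 28.3, against a median of 37.5 FPKM in the newborn, with a range from 2.44 to 306. The median difference was -3.30, or -3.25 without the 3 loci listed at 0 in the adult. The locus chr13:21809496-21809984 had 20.0 FPKM in the adult and 296 FPKM in the newborn, after 1087, 802 and 492 FPKM at E10.5, E14.5 and E17.5. The locus chr13:22135098-22139792 had 4.04 FPKM in the adult and 114 FPKM in the newborn, after 394 FPKM at E10.5. Such a steady order was the rule in this run: 19 of the 22 loci were lower at each of the 4 steps from E10.5 to the adult. The last of these steps is lower in every locus by the definition of the run. Before birth alone, 20 of the 22 were lower at both steps, against 29.5% of all members. At least 1 unit lower at E17.5 than at E10.5 were 13, against 2.95% of all members.

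Other lower runs, of 6 loci each, lay further along the chromosome. The longest run ended at chr13:22139792 and the next began at chr13:23622918, so the runs do not adjoin. The 4 lower runs on chromosome 13 spanned chr13:21807631-23859813 (2.05 Mb). This stretch, runs included, held 48 members in 24 intervals, of which 41 were lower and 1 higher, with a median difference of -3.01. Such stretches were bounded by the called runs themselves, which hold most of these lower loci, so these counts are a description. The median level of the 48 members was 9.47 FPKM in the adult and 91.3 FPKM in the newborn. A further lower run of 6 loci in 4 intervals on chromosome 3 (chr3:96024377-96074115) showed a like course, with 5 of its 6 loci lower at each of the 4 steps and a median difference of -2.17. Its last step too is lower by definition. Before birth alone, 5 of its 6 loci were lower at both steps, against 29.5% of all members. The chromosome 3 run was singled out after its values were seen.

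The second longest lower run lay on the X chromosome (chrX:132373597-133202916, 829 kb) with 12 loci in 11 intervals. Its loci had a median of 0.457 FPKM in the adult, from 0 to 27.6, and of 20.7 FPKM in the newborn, from 2.57 to 159. The median difference was -2.59, or -2.43 without the 2 loci listed at 0 in the adult. The locus chrX:132748510-132750052 had 0.544 FPKM in the adult and 44.8 FPKM in the newborn, after 79.3 FPKM at E10.5 and 108 at E17.5. The locus chrX:132779618-132781678 had 27.6 FPKM in the adult and 159 FPKM in the newborn, after 308 FPKM at E10.5 and 257 at E17.5. Before birth its loci did not share a direction: 1 of the 12 was at least 1 unit higher at E17.5 than at E10.5, where 6.85% of all members were, and 2 were lower, where 2.95% were, with a median of -0.08.

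The third, on chromosome 16 (chr16:36156896-36455478, 299 kb), held 7 loci, each in its own interval. Of these, 6 were listed at 0 FPKM in the adult and the other at 0.790, against 1.05 to 17.1 FPKM in the newborn. The highest, chr16:36184297-36188196, had 0.790 FPKM in the adult and 17.1 FPKM in the newborn, after 0.310, 3.41 and 13.9 FPKM at E10.5, E14.5 and E17.5. The loci of this run ran the other way before birth: 6 of 7 were at least 1 unit higher at E17.5 than at E10.5, where 6.85% of all members were. Their median E17.5 minus E10.5 was 2.25. Adult and E10.5 values were under 1 FPKM in all 7 loci, and the E17.5 and newborn values were above both in all 7.

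The 3 longest higher runs were of another kind, made almost wholly of loci with no transcript identifier and low levels. On chromosome 6 (chr6:31013725-31348759) 15 such loci shared 1 interval, with a median of 4.45 FPKM in the adult, from 1.24 to 9.46, and of 0.243 FPKM in the newborn, from 0 to 0.526. The interval holds 18 loci in all, of which 17 were higher and 0 lower. Of its loci with an identifier, the highest had 40.3 FPKM in the adult and 1.39 FPKM in the newborn, and another had 24.3 and 0.408 FPKM in the same order. The next run (chr9:90772924-92387354) held 15 loci in 7 intervals, 13 of them without an identifier, with a median of 2.30 FPKM in the adult and 0.0638 FPKM in the newborn. Of its loci, 7 were listed at 0 in the newborn. The third (chr6:108866790-109856713) held 10 loci without an identifier, with a median of 3.69 FPKM in the adult, and 6 of them were listed at 0 in the newborn. In none of these 3 runs did a locus differ by 1 unit or more between E17.5 and E10.5. All their loci without an identifier were under 1 FPKM at both of these stages, where the limit cannot be reached. For those loci the count thus says nothing about a change before birth.

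**Figure D4:**
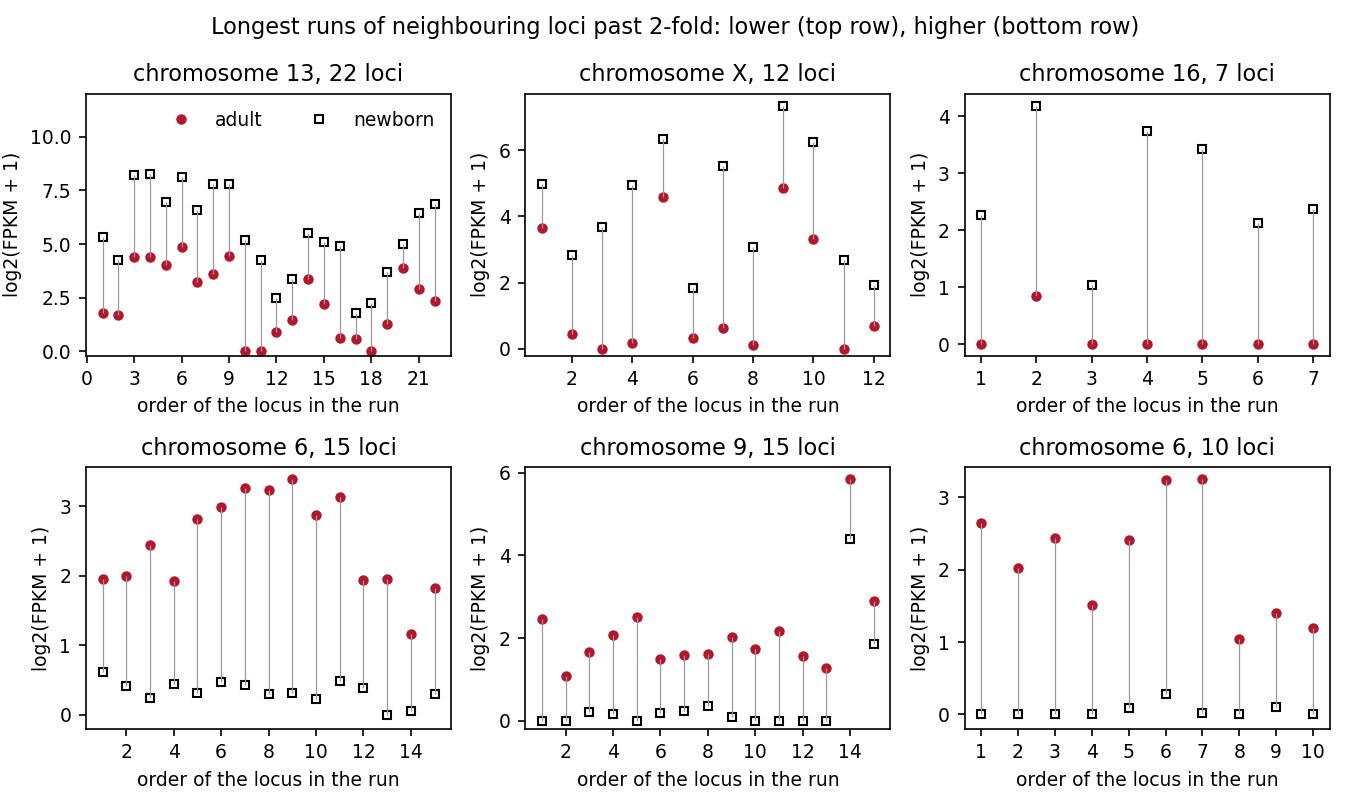
Each panel is a run of neighbouring loci in the order of their start (x axis), with log2(FPKM + 1) on the y axis, filled circles for the adult and open squares for the newborn, 1 library each. Loci of a shared interval have the same start and are in the order of their assembly numbers. In the 3 lower runs (top row) the newborn values reach 306 FPKM, and in the higher runs (bottom row) most newborn values lie below 1 FPKM.

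Loci without a transcript identifier were called higher more often in general. Of 1131 such members 321 were higher (28.4%) and 83 lower (7.34%), with a median difference of 0.46. Of 12950 members with an identifier 1335 were higher (10.3%) and 1304 lower (10.1%), and their median was 0.02. Loci without an identifier were low, with a median of 1.54 FPKM in the adult and 1.05 FPKM in the newborn. Among members under 10 FPKM in both libraries, 27.7% of the 1068 without an identifier and 7.43% of the 6013 with one were higher. Where loci without an identifier shared an interval, 35.2% of 508 were higher, and where they had their own, 22.8% of 623.

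Among nuclear chromosomes, the X chromosome had the lowest share of higher loci and the highest share of lower loci. Of its 434 members 21 were higher (4.84%) and 77 lower (17.7%), with a median difference of -0.23, against 11.9% higher, 9.60% lower and a median of 0.05 over the 13639 autosomal members. The stretch spanned by its 2 lower runs, runs included (chrX:131219725-133202916), held 19 members, 17 of them lower. Without these 19 the X chromosome still had 60 lower of 415 (14.5%) and a median of -0.20. Chromosome 13 had 15.8% of 576 members lower, but 9.47% of 528 without the stretch described above, close to the share of all members. Chromosome 19 was at the opposite end, with 84 of 503 members higher (16.7%), 26 lower (5.17%) and a median of 0.17.

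**Figure D5:**
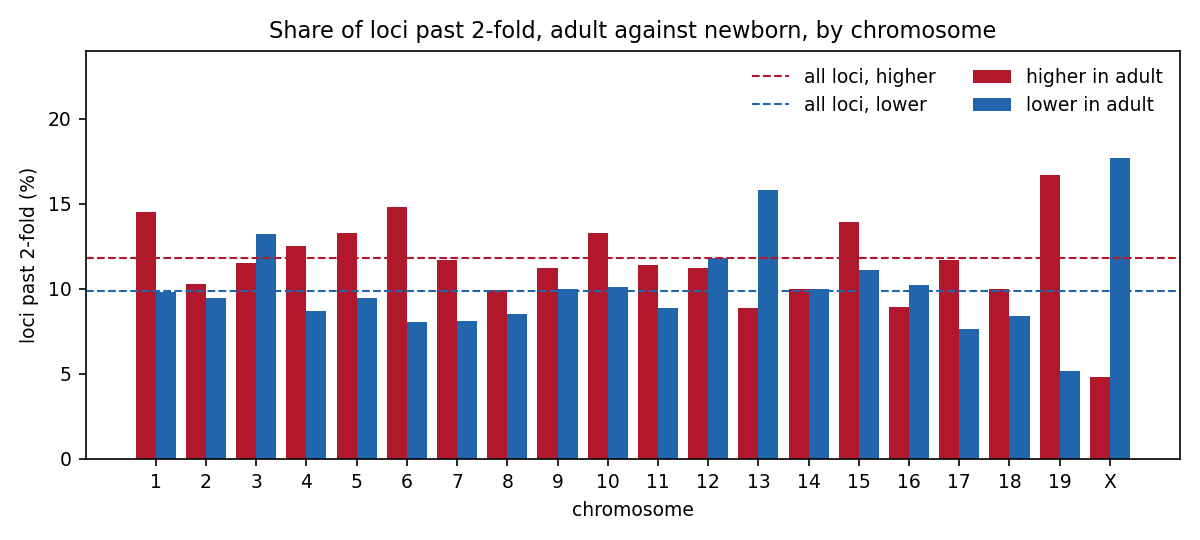
Share of members past the 2-fold limit in percent (y axis) for each nuclear chromosome (x axis), with red bars for loci higher in the adult and blue bars for loci lower in the adult; dashed lines mark the shares over all members, 11.8% and 9.85%. The X chromosome stands at 4.84% higher and 17.7% lower, and chromosome 19 at 16.7% higher and 5.17% lower.

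Overlapping loci can divide reads between them, so the value of a single locus in a shared interval is uncertain. Of the members, 5916 (42.0%) shared their interval with another locus, in 3156 intervals, and 26 of these intervals held loci called in opposite directions. The widest gap was in chr5:135178465-135250384, where the identifier uc008zwv.1 is listed for 2 loci. One had 74.8 FPKM in the adult and 0 in the newborn, and the other had 13.9 FPKM in the adult and 304 FPKM in the newborn. Summed over the interval, the values were 88.6 FPKM in the adult and 305 FPKM in the newborn. When loci were summed per interval, 1249 of 11375 intervals were higher (11.0%) and 1173 lower (10.3%).

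Exact zeros were another limit of single values. Of the members 126 were listed at 0 in the adult and 145 in the newborn, 12 and 6 of them with at least 10 FPKM in the other library. The most extreme value of the comparison was of this kind. In chr14:55555306-55626715, which holds 6 loci, all 6 were listed at 0 in the adult. One of them had 3851 FPKM in the newborn, after 1951, 3093 and 4614 FPKM at E10.5, E14.5 and E17.5. No fold is given for this interval, since a listed 0 can also be a value that was not estimated, and which of these holds was not tested. Both examples were chosen after their values were seen.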

How the data were processed

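Long RNA values are FPKM per locus, per the file headers, as the authors deposited them. The submitters' processing notes name the build mm9 and list RSEM, Bowtie, Bowtie2, HISAT and HISAT2 with no role or version. Library preparation and strandedness are not given in the sources used here for long RNA, and antisense loci in shared intervals cannot be told apart. No read totals are given. Among 210 loci under 0.05 FPKM in both libraries, 79.0% of the adult to newborn ratios lay within 0.05 log2 units of 1.29 or its 2-fold steps, the ratio of single fragments, which puts adult depth at 77.4% of newborn depth.

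Groups came from sample titles. Differences of log2(FPKM + 1) were computed with Python 3.11.15, pandas 2.3.3 and numpy 2.4.6, checked on simulated data. With 1 library per stage no test was run. Identifiers were looked up in a gene name table and a RefSeq table (GRCm38.p6), 0 loci matched, no coordinate was converted and the 23 gene lists could not be applied. On the mitochondrial record 5 of 16 interval ends match RefSeq, with deposited starts counted from 0. The text names 2 identifiers per direction, the 3 longest runs per direction and the mitochondrial loci; others are marked as chosen after their values were seen. Members, lists and settings were chosen with earlier results of these data known. The small RNA table was not used.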

Additional observations from a re-analysis of the deposited data

How the results depend on the processing

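No paired analysis was possible because each stage has 1 library and no replicates. The median difference lay between -0.02 (shared intervals left out) and 0.12 (from 10 FPKM) under the 14 alternatives, against 0.04, no named locus changed direction, and a locus under 1 FPKM in both libraries cannot reach the limit, so dropping the filter left the calls as they were. Counts, in the order adult higher and adult lower, were 766 and 492 with a pseudocount of 5, 913 and 544 from 10 FPKM, 370 and 342 at a 4-fold limit, and 842 and 965 without shared intervals, where lower loci outnumbered higher ones. Runs on all chromosomes, in the same order, numbered 55 and 29 with a pseudocount of 0.1, 5 and 7 with 5, 10 and 7 from 10 FPKM or without shared intervals, 1 and 6 at the 4-fold limit, 11 and 8 when 6 loci in a row were asked for, 16 and 8 with loci summed per interval, and 12 higher without unidentified loci. Without the filter on low values runs numbered 24 and 12, against 33 and 16 with it, and without loci at 0 they numbered 22 and 12. Of the 1656 adult-higher loci, 323 were higher at E17.5 than at E10.5. This became 740 of 2220 with a pseudocount of 0.1 and 124 of 766 with 5. It was 28 of 370 at the 4-fold limit and 169 of 842 without shared intervals. Of the 1387 adult-lower loci, 198 were lower at E17.5 than at E10.5. This became 376 of 1982, 49 of 492 and 8 of 342 in the first 3 of these settings, and 73 of 544 from 10 FPKM. The number of called loci changed with each of these settings, so the counts alone are not shares. Scaling to the same FPKM total gave 998 and 3, or 1048 and 2 without mitochondrial loci, because 1 locus made up 84.8% of summed FPKM at E10.5, so these prenatal counts hold for FPKM as deposited and for median-ratio scaling (317 and 190). Of the 434 members on the X chromosome, 40 were lower with a pseudocount of 5 and 32 at the 4-fold limit. Of all 14081 members, 492 and 342 were lower in the same order. From 10 FPKM, 35 loci on the X chromosome were lower, and 544 of all 7000 members. Of the 1131 members without an identifier, 510 were higher with a pseudocount of 0.1, 41 with 5 and 60 at the 4-fold limit. Of all 14081 members, 2220, 766 and 370 were higher in the same order. From 10 FPKM, a level that 1068 of the 1131 did not reach, 25 were higher. Without shared intervals 142 of 623 were higher, and 842 of all 8165 members. Of the mitochondrial loci 1 of 8 passed the 4-fold limit. For these changes the cause was not tested. Summing per interval and leaving out loci at 0 were added after seeing the data. Depth limits the loci near 1 FPKM, and no spread between animals is known.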
